A study of Drosophila melanogaster with 4 samples.

Results

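The right arm of chromosome 3 of Drosophila melanogaster, 3R, held 1273 of the 5135 regions enriched for the protein ZW5 in whole embryos, or 24.8% of the list. These 1273 are the regions that the authors placed on 3R in their list for both replicates, referred to as the combined list, and no value of a region entered the choice. Crosslinked chromatin came from wild-type Oregon-R embryos (Oregon-R-modENCODE) staged at 14 to 16 h and was analysed by chromatin immunoprecipitation and sequencing with an antibody to ZW5. There were 2 ChIP libraries, and 2 input libraries of the same strain and stage, each paired by the labels with the ChIP library of its number. Each ChIP library also has a list of its own, with 159 regions on 3R in replicate 1 and 305 in replicate 2.

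ZW5 (zeste-white 5) is a zinc-finger DNA-binding protein. It is known for binding scs, a boundary element at the edge of a heat shock locus on 3R, and boundary elements are known to limit the reach of enhancers and of neighbouring chromatin. The same arm carries the Antennapedia and bithorax complexes, Hox gene clusters whose regulatory DNA includes well-studied boundary elements. Positions are those of FlyBase release 5, in which 3R is counted from its centromeric end to its telomere. A gene annotation of that build was not used here, so regions are given by position and no gene is named for them. DNA sequence of that build was not used here either.

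Several facts of the lists bear on all that follows. Each region has a score given by the authors, whose scale is not stated, and regions that score at least 1 are called strong here and the others weak. The narrowest region on 3R was 1001 bp in the combined list, 1302 bp in replicate 1 and 1301 bp in replicate 2. Read depth is unknown. Intervals are 95% intervals for counting error only, and neighbouring regions are not independent of each other. With 1 list per library and 1 combined list, no difference between arms has a test across samples. The labels do not say whether the replicates came from separate embryo collections.

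ZW5 regions were packed more densely on 3R than on the other large arms as a group. The combined list had 45.6 regions per Mb of 3R (exact Poisson interval 43.1 to 48.2), against 39.1 per Mb over 2L, 2R, 3L and X (37.8 to 40.4), a ratio of 1.17 (interval 1.09 to 1.24). By arm, the ratio of 3R was 1.28 over 2L (1.17 to 1.40), 1.19 over 3L (1.09 to 1.30), 1.15 over X (1.06 to 1.26) and 1.05 over 2R (0.966 to 1.15). The interval against 2R includes 1, so the data do not separate 3R from 2R. Regions covered 1.88 Mb of 3R, or 6.73% of the arm, against 5.58% of the other 4 arms.

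The replicate lists differed in how far 3R stood out. Replicate 2 had 10.9 regions per Mb on 3R (9.74 to 12.2) and 8.09 on the other 4 arms (7.51 to 8.69), a ratio of 1.35 (1.18 to 1.55). Replicate 1 had 5.70 per Mb on 3R (4.85 to 6.66) and 5.15 on the other 4 arms (4.69 to 5.63), a ratio of 1.11 whose interval of 0.919 to 1.33 includes 1. In replicate 1 the weak regions had nearly the same density on 3R and elsewhere, 3.87 per Mb in each case, with a ratio of 0.999 (0.798 to 1.24). Strong regions of replicate 1 had a ratio of 1.44 (1.01 to 2.01), which was 3.15 over X (1.69 to 6.32) and 1.22 over 2L, 2R and 3L without X (0.854 to 1.72). Strong regions of replicate 2 had a ratio of 1.36 (0.964 to 1.89), and those of the combined list 1.17 (0.838 to 1.61), with 0.874 over 2L alone (0.583 to 1.31).

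In the combined list strong and weak regions had the same ratio to the other 4 arms together, 1.17, with an interval of 1.09 to 1.25 for the weak ones. For strong regions the ratio was 2.03 over X (1.20 to 3.54) and 1.03 over 2L, 2R and 3L without X (0.731 to 1.43). For weak regions it was 1.13 over X (1.04 to 1.24). Among the 2567 highest scores of the combined list, 3R held 487 regions, 17.5 per Mb. Its ratio to the other 4 arms there was 0.880 (0.795 to 0.973), which turns the direction. X had 30.3 regions per Mb in that subset, and against 2L, 2R and 3L alone the ratio of 3R was 1.06 (0.955 to 1.18). The comparisons without X were chosen after these values were seen.

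**Figure D1:**
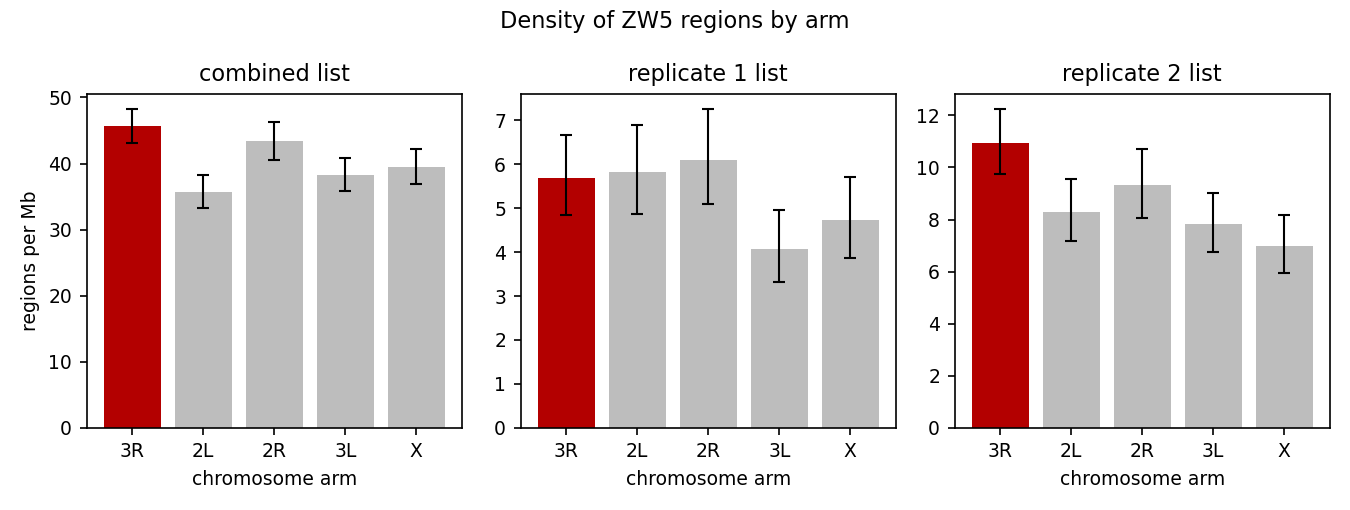
Regions per Mb of header length on 3R (red) and on 2L, 2R, 3L and X (grey), in the combined list and in each replicate list; bars are densities and error bars 95% exact Poisson intervals. The axes differ between panels. In the combined list 3R stands at 45.6 per Mb, and in replicate 1 its 5.70 per Mb lies under the 6.10 per Mb of 2R.

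Along the arm, regions were found from end to end. The first region began 40.8 kb from the start of the sequence, at 3R:40822-42158, and the last ended 62.9 kb before its end, at 3R:27840258-27842158. Cut into 4 equal segments of 6.98 Mb, the arm held 320, 324, 314 and 315 regions from centromere to telomere. In steps of 1 Mb the 27 complete bins held 28 to 69 regions, with a median of 43. The fullest was the bin from 12 to 13 Mb, with 69 regions (53.7 to 87.3 per Mb), followed by 23 to 24 Mb with 62, 16 to 17 Mb with 59 and 14 to 15 Mb with 58. The sparsest were 21 to 22 Mb with 28 regions (18.6 to 40.5 per Mb) and 10 to 11 Mb with 30.

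Counts in 1 Mb bins of the combined list varied less on 3R than on the other large arms, but counts in 100 kb windows did not. The variance of the 1 Mb counts was 2.05 times their mean on 3R, against 2.92 on 2L, 3.08 on 3L, 3.51 on X and 3.66 on 2R, where a value of 1 would be that of independent counts. In 100 kb windows the value was 1.38 on 3R, against 1.36 on 2L and 1.47 to 1.52 on 2R, 3L and X. The order at 1 Mb is a description, and it did not hold in the replicate lists either. In replicate 1 the value was 1.55 on 3R, against 0.849 to 2.41 on the other arms, and in replicate 2 it was 1.49, against 0.966 to 2.50.

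The replicate profiles rose and fell in some of the same bins and not in others. From 4 to 5 Mb replicate 1 had 12 regions and replicate 2 had 21, and no bin of 3R had more in either list. From 12 to 13 Mb they had 12 and 18. From 23 to 24 Mb replicate 2 had 18 regions, while replicate 1 had 2. Over the 28 bins the 2 replicates had a Pearson's r of 0.466 and a Spearman's rho of 0.395. The bins of a list share its library, and their sequence content was not examined.

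**Figure D2:**
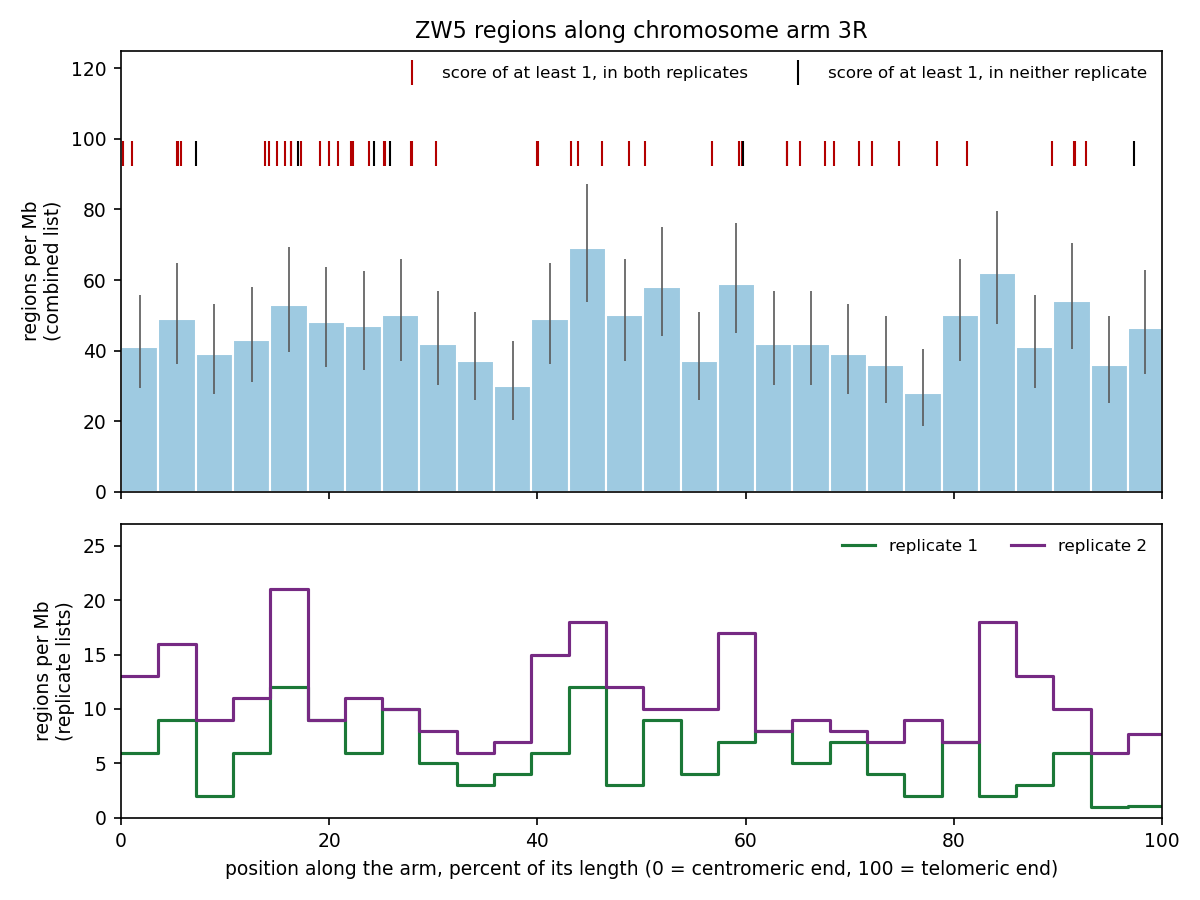
Regions per Mb in bins of 1 Mb along 3R, drawn in percent of the arm from its centromeric end; the upper panel shows the combined list with 95% exact Poisson intervals and a tick for each strong region, the lower panel the replicate lists. The fullest bin has 69 regions, and the ticks are closest together in the first 8 Mb, which hold 26 of the 53 strong regions.

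Strong regions of 3R lay toward the centromere more often than weak ones. On 3R 53 regions scored at least 1 (4.16%, Wilson interval 3.20 to 5.41), against 4.15% on the other 4 large arms and 6.54% in the whole combined list, small scaffolds included. The first 8 Mb from the centromeric end, 28.7% of the arm, held 26 of the 53 strong regions (49.1%, 36.1 to 62.1) and 344 of the 1220 weak ones (28.2%, 25.7 to 30.8). That stretch was chosen after its counts were seen. By the same 4 segments from centromere to telomere, the strong regions numbered 21, 12, 13 and 7, so that the first segment held 39.6% of them (27.6 to 53.1). The replicate lists gave close to the same counts, 20, 12, 13 and 6 in replicate 1 and 21, 11, 13 and 7 in replicate 2. On the other 4 arms the segment next to the centromere also held a larger share of the strong regions (31.8%, 24.8 to 39.6) than of the weak ones (23.2%, 21.8 to 24.7). The strong regions of the 3 lists are largely the same places, so these are not separate observations. The highest scores did not lie toward the centromere in this way. The 12 highest among regions in both replicates had a median place 58.2% of the way to the telomere.

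The telomeric side of 3R, from the midpoint of the arm to the telomere, held a smaller share of the regions than the telomeric sides of 2L, 2R, 3L and X pooled, though not than each of them. Of all 1273 regions, 629 lay there (49.4%, 46.7 to 52.2), against 53.9% on 2L, 2R, 3L and X (52.3 to 55.5), a difference of -4.49 points (Newcombe interval -7.68 to -1.29). On 2R alone the share was 51.5% (48.2 to 54.7), which overlaps that of 3R. Of the 78 regions that both replicates overlapped, 32 lay there (41.0%, 30.8 to 52.1), against 59.4% on the other 4 arms (52.4 to 66.0), a difference of -18.4 points (-30.6 to -5.27). X had nearly the same share as 3R, 41.4% (25.5 to 59.3), and 2L, 2R and 3L had 59.6% to 68.6%. In replicate 1 the telomeric side of 3R held 66 of 159 regions (41.5%, 34.1 to 49.3), against 58.4% on the other 4 arms (53.9 to 62.8), a difference of -16.9 points (-25.5 to -7.93). In replicate 2 it held 139 of 305 (45.6%, 40.1 to 51.2), against 55.6% (52.0 to 59.2), a difference of -10.1 points (-16.6 to -3.39). Of the 53 strong regions 20 lay on the telomeric side (37.7%, 25.9 to 51.2), against 47.3% on the other 4 arms and 28.6% on X alone. The difference from the other 4 arms, -9.56 points, has an interval of -23.8 to 6.03, which includes 0. Among regions that neither replicate overlapped, the shares were 50.9% on 3R and 52.9% on the other 4 arms, and the interval of their difference, -5.64 to 1.73 points, includes 0 as well. Against 2L, 2R and 3L without X, a comparison added after these values were seen, the differences were -4.21 points for all regions (-7.54 to -0.878), -21.5 for those in both replicates (-33.9 to -8.08), -18.0 in replicate 1 (-26.9 to -8.69) and -10.6 in replicate 2 (-17.4 to -3.71).

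The segment of 3R next to the telomere, the fourth of the 4, was where replicate 1 had least. It held 22 of the 159 regions of replicate 1 (13.8%, 9.32 to 20.1), 70 of the 305 of replicate 2 (23.0%, 18.6 to 28.0) and 315 of the combined list (24.7%, 22.5 to 27.2). On the other 4 arms the same segment held 33.0% of replicate 1 (28.9 to 37.4), 29.6% of replicate 2 (26.4 to 33.0) and 29.8% of the combined list (28.3 to 31.3).

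**Figure D3:**
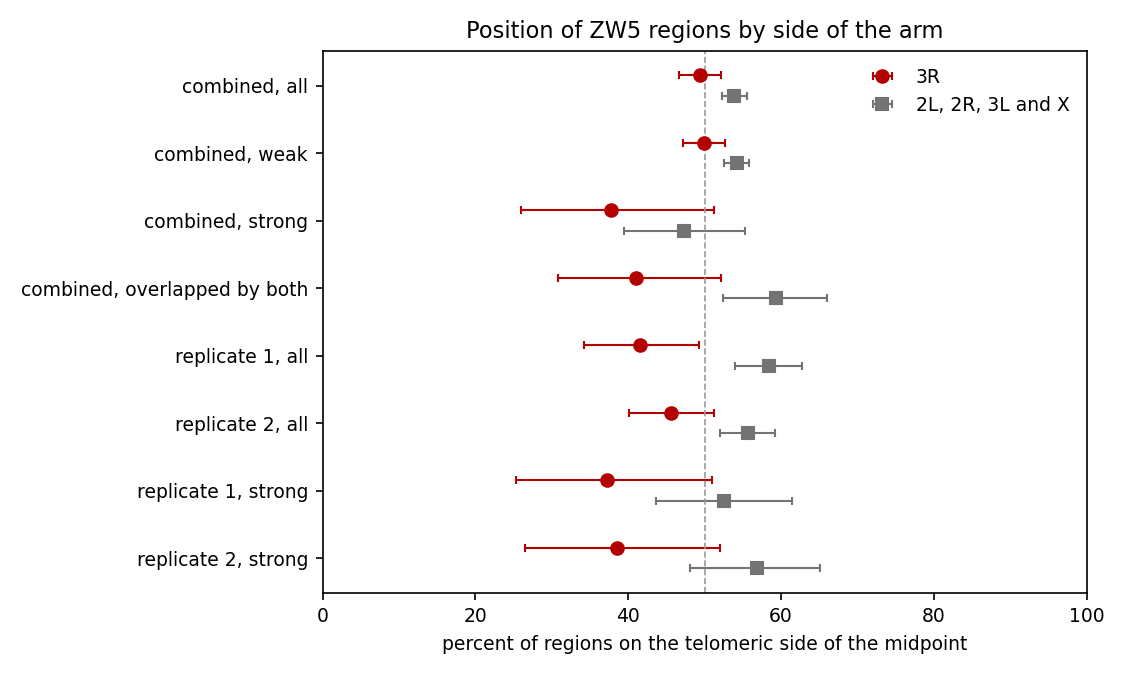
Percent of regions whose centre lies on the telomeric side of the midpoint of the arm, on 3R (red circles) and on 2L, 2R, 3L and X together (grey squares), for sets of regions named on the vertical axis; bars are 95% Wilson intervals and the dashed line marks 50%. For regions overlapped by both replicates the share is 41.0% on 3R and 59.4% on the other 4 arms.

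Neighbouring regions on 3R were mostly between 4.71 and 27.4 kb apart. The gap from the end of a region to the start of the next had a median of 12.8 kb (order-statistic interval 11.7 to 13.8). The range of 4.71 to 27.4 kb is that of the central 50% of gaps. The medians of the other arms were 13.0 kb on 2R (11.3 to 14.4), 15.2 kb on X (14.0 to 16.4), 15.3 kb on 3L (14.0 to 17.2) and 16.8 kb on 2L (15.3 to 18.6). Of the 1272 gaps on 3R, 337 were under 5 kb (26.5%), against 22.9% over the other 4 arms, a difference of 3.60 points (0.859 to 6.44). On 2R alone the share was 24.3%. Gaps over 50 kb numbered 123 on 3R (9.67%) and filled 33.4% of the arm, against 36.6% to 44.1% of the other arms. In the replicate lists the median gap on 3R was 102 kb in replicate 1 (68.8 to 135) and 50.8 kb in replicate 2 (40.2 to 64.7).

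**Figure D4:**
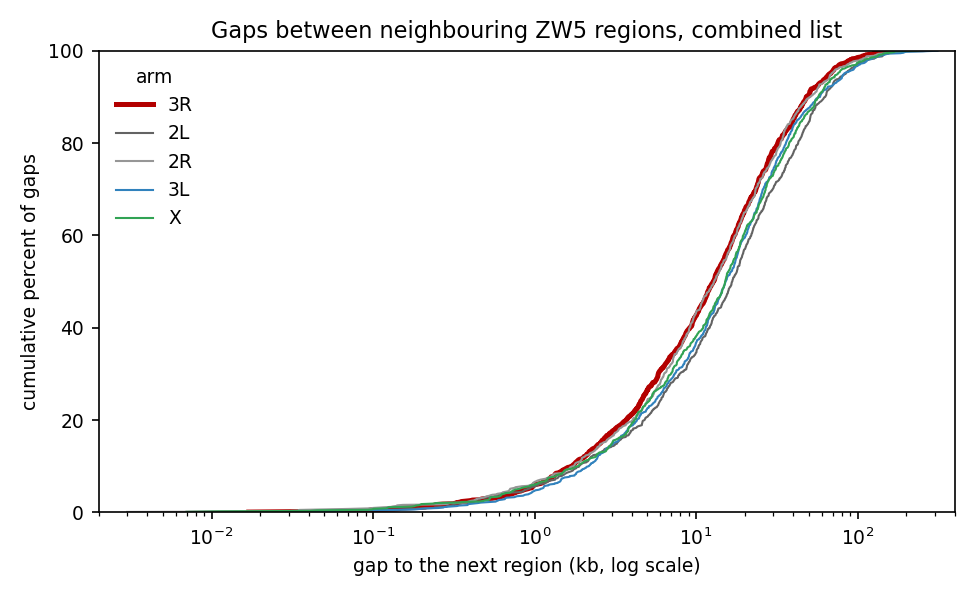
Cumulative percent of the gaps between neighbouring regions of the combined list, against the gap in kb on a log scale, for 3R (thick red line) and the other large arms. The curve of 3R lies beside that of 2R and to the left of 2L, 3L and X over its middle, where the medians are 12.8 kb for 3R and 16.8 kb for 2L.

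Long empty stretches made up a smaller share of the gaps on 3R than on the other large arms pooled. Of the gaps on 3R 19 exceeded 100 kb (1.49%), against 2.75% over the other 4 arms, a difference of -1.26 points (-2.06 to -0.298). By arm the share was 2.18% on 2R, the nearest, and 2.60% to 3.30% on X, 2L and 3L. These shares were not adjusted for the higher density of 3R. The longest gap of 3R was 167 kb, against 236 to 313 kb as the longest of each other arm. The 5 longest gaps lay at 3R:2950605-3117239 with 167 kb, 3R:17952151-18102011 with 150 kb, 3R:8194473-8342059 with 148 kb, 3R:305265-441595 with 136 kb and 3R:26027349-26163607 with 136 kb. The regions on either side of them were weak, as were 95.8% of all regions on 3R, with scores from 0.24 to 0.39. The third and the fifth were empty in both replicate lists too. The first and the fourth each contained 2 regions of replicate 2, and the second contained 1 of replicate 1. Of 279 complete windows of 100 kb on 3R, 6 were empty (2.15%), against 3.32% to 6.12% on the other arms.

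The fullest windows, like the arm as a whole, held mostly weak regions. On all of 3R 95.8% of regions were weak and 74.8% were overlapped by neither replicate. A 100 kb window of 3R held a median of 4 regions and at most 14. The fullest window, 3R:12000001-12100000, had 14 regions that covered 28.8% of it. Of these 14 regions, 1 was strong, with a score of 2.52, 4 were overlapped by both replicates and 5 by neither. The next windows by count were 3R:11200001-11300000 with 13 regions and 3R:8400001-8500000 and 3R:23100001-23200000 with 12 each. Of the windows with 11 regions, the one nearest the centromere was 3R:1600001-1700000. In these 4 windows 9 or 10 regions each were overlapped by neither replicate, and the highest scores ran from 0.41 to 1.20. The windows 3R:11200001-11300000 and 3R:23100001-23200000 held no region that both replicates overlapped. The list of replicate 1 had 1 region in the first of these and 0 in the other, and that of replicate 2 had 4 and 3.

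Runs of at least 5 regions with each gap at most 5 kb were rare. On 3R 7 such runs held 39 regions (3.06%, 2.25 to 4.16), against 1.70% to 3.17% on the other arms. The longest run had 7 regions in 27.8 kb, at 3R:12878058-12905844, and included the fifth-strongest region of the arm. Of these 7 regions, 1 was overlapped by both replicates and the others by neither. The next runs had 6 regions each. The run at 3R:4159434-4184432 was 59.6% covered, and 5 of its regions were overlapped by at least 1 replicate. The run at 3R:12060316-12085118 was 64.0% covered, with all 6 overlapped by at least 1 replicate and 4 by both. At the other extreme, 689 regions of 3R (54.1%) had no neighbour within 5 kb, against 56.6% to 65.2% on the other arms.

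Some neighbours were nearly adjacent. On 3R 76 gaps were under 1 kb (5.97%), within the range of 4.58% to 6.55% on the other arms, and 1 of these pairs was spanned by a single region of a replicate list. The shortest gap, 17 bp, lay between 3R:12049682-12050830 and 3R:12050848-12052312, both weak and in neither replicate. In 63 of the 76 pairs both regions were weak, in 12 pairs 1 was strong and in 1 pair both were. Of all regions on 3R 95.8% were weak, so mostly weak pairs are the rule on the arm. Conversely, 4 regions of the combined list on 3R each spanned 2 regions of replicate 1, and 6 spanned 2 regions of replicate 2.

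Strong regions of 3R lay a median of 316 kb apart (212 to 560), with some close pairs. Of the gaps between successive strong regions, 6 of the 52 were under 20 kb. The closest pair was 0.963 kb apart, 3R:4547672-4550338 with a score of 2.81 and 3R:4551302-4559078 with 3.33. Next came 3R:25561184-25566450 with 2.66 and 3R:25573352-25576096 with 3.00, 6.90 kb apart with 1 weak region between them. The pair 3R:7773924-7776778 with 3.27 and 3R:7787368-7790124 with 1.94 lay 10.6 kb apart with no region between. To the telomeric side of that pair, 74.3 kb held no region. Strong regions had a weak or strong neighbour nearer than weak regions did, with a median of 3.33 kb to the nearer neighbour (1.43 to 4.32), against 5.86 kb for weak regions (5.57 to 6.59).

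Long stretches had weak regions only. The longest stretch without a strong region ran for 2.70 Mb, at 3R:8454317-11157737, and held 97 weak regions, of which 2 were overlapped by both replicates. The next, 2.27 Mb at 3R:22690319-24963075, held 111 weak regions with 2 overlapped by both. The third stretch, 1.85 Mb at 3R:2006749-3855051, held 72 weak regions, none of them overlapped by both. The fourth, 1.80 Mb at 3R:14051349-15852537, held 78 weak regions with 3 overlapped by both. Over all of 3R, 31 of the 1220 weak regions were overlapped by both (2.54%). These stretches were chosen after the positions of strong regions were seen. The third contains the longest gap of the arm. It also contains the 1 strong region of replicate 1 on 3R that neither replicate 2 nor the combined list had, 3R:3179426-3180860 with a score of 3.45, rank 34 in its list and 1435 bp wide.

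The highest-scoring regions of 3R in both replicates were spread over most of the arm. The 12 highest scores among regions overlapped by both replicates ran from 3.45 to 4.93, and these regions lay between 14.2% and 92.8% of the way to the telomere. The highest of the whole combined list, 3R:19782710-19785874, was 3165 bp wide and scored 4.93, with 4.60 in replicate 1 and 5.28 in replicate 2, the top rank in each. It was followed by 3R:17847222-17850496 with 4.52 and 3R:16645870-16649764 with 4.45. Then came 3R:15852538-15858916 with 4.14, 3R:12897126-12899850 with 3.94 and 3R:21876594-21886584 with 3.83. The others were 3R:13626094-13632774 with 3.80, 3R:20849574-20852346 with 3.76 and 3R:3950732-3953620 with 3.65. The last 3 were 3R:25880388-25883712 with 3.56, 3R:11157738-11160378 with 3.50 and 3R:7059860-7064798 with 3.45.

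Other regions lay near each of these 12, as the density of the arm alone would bring about in part. Each had another region of the combined list within 0.319 to 5.64 kb. Between 3 and 10 others, with a median of 6.5, had their centres within 50 kb. For scale, 100 kb windows of 3R held 4.56 regions on average. The ranks of the 12 were 1 to 50 in the combined list, 1 to 59 in replicate 1 and 1 to 58 in replicate 2. The 12 were chosen by combined score and overlap with both replicates, so high ranks in each list follow in part from the choice. Within the 12 the ranks could differ, as at 3R:21876594-21886584 with 25 in replicate 1 and 2 in replicate 2. The first 5 ranks of replicate 2 and the first 3 of replicate 1 were all among these 12.

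Strong regions were wider than weak ones. The median width on 3R was 1277 bp (1251 to 1299), against 1257 bp on the other 4 arms (1243 to 1275), and 672 of the 1273 regions (52.8%) were narrower than any region of the replicate lists. Strong regions had a median of 2989 bp (2771 to 3811), against 1260 bp for weak regions (1237 to 1287). Spearman's rho between width and score was 0.418 across the 53 strong regions and -0.349 across the 1220 weak ones. Across all 1273 regions it was -0.212. These are descriptions across regions of 1 list.

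The widest region of 3R was 3R:21876594-21886584, at 9991 bp. Replicate 1 had a region of 9300 bp there. The highest-scoring region of replicate 2 there was 3244 bp wide and had the second rank of its list. Replicate 2 also had a region of 6206 bp there, with a score of 3.23. The other 4 of the 5 widest were 3R:11168320-11178030 with 9711 bp, 3R:4551302-4559078 with 7777 bp, 3R:274564-281606 with 7043 bp and 3R:13626094-13632774 with 6681 bp. All 5 were strong and overlapped by both replicates.

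Scores on 3R were close to those on the other autosomal arms. The median score of all 1273 was 0.374 (0.371 to 0.377), against 0.373 on 2L, 0.382 on 2R, 0.381 on 3L and 0.440 on X. Few regions of 3R in the combined list had intermediate scores: 25 scored from 0.5 to 1, and 1195 under 0.5. The boundary at 1 fell between the highest weak region, at 0.98, and the lowest strong one, at 1.06. Of the 25, 10 were overlapped by both replicates and 14 by neither. In the replicate lists scores from 0.5 to 1 were common on 3R, with 61 of 159 regions in replicate 1 and 123 of 305 in replicate 2. On X 166 of the 886 regions of the combined list had such scores. The boundary at 1 thus parts the scores less clearly there.

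Most 3R regions of the combined list had no counterpart in a replicate list. Both replicates overlapped 78 of the 1273 (6.13%, 4.94 to 7.58), against 5.53% on the other 4 arms and 5.36% in the whole combined list. The difference from the other 4 arms, 0.60 points, has an interval of -0.83 to 2.22, so the share of 3R was near the background. Replicate 1 alone overlapped 61 regions (4.79%), replicate 2 alone 182 (14.3%) and neither 952 (74.8%). Support from at least 1 replicate came to 25.2% (22.9 to 27.7), against 23.6% on the other 4 arms and 23.0% in the whole combined list, with an interval of -1.06 to 4.46 points for the difference. Regions overlapped by replicate 2, with or without replicate 1, made up 20.4% on 3R and 17.8% on the other 4 arms, a difference of 2.61 points (0.12 to 5.21). On 2L the share was 20.3%, close to that of 3R, and without X the difference was 1.64 points (-0.972 to 4.35), an interval that includes 0. Among regions of 1301 bp or more the difference from the other 4 arms, 3.90 points, had an interval of -0.504 to 8.40. Among the 601 regions of 3R with a width of 1301 bp or more, support from both was 13.0%, and the difference from the other 4 arms was 1.00 points (-1.97 to 4.27).

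Among strong regions of 3R, support followed width. All 47 that were at least 1301 bp wide were overlapped by both replicates. The other 6 were 1001 to 1211 bp wide, and no replicate region touched them. The 47 make up 88.7% of the strong regions (77.4 to 94.7), against 74.3% on the other 4 arms, a difference of 14.4 points (1.43 to 24.0). By arm the share was 84.0% on 2L, 81.6% on 3L, 69.2% on 2R and 47.6% on X. Without X it was 78.7% on the other arms, and the difference of 9.94 points had an interval of -2.92 to 19.9, which includes 0. On the other 4 arms, X included, 35 strong regions were narrower than 1301 bp, and 0 of them had a counterpart in a replicate list. Of the 113 wider ones there, 110 were in both. The highest-scoring regions of 3R in neither replicate were 3R:27160294-27161296 with a score of 2.76 and 3R:4735604-4736604 with 1.82, and they were 1003 and 1001 bp wide.

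**Figure D5:**
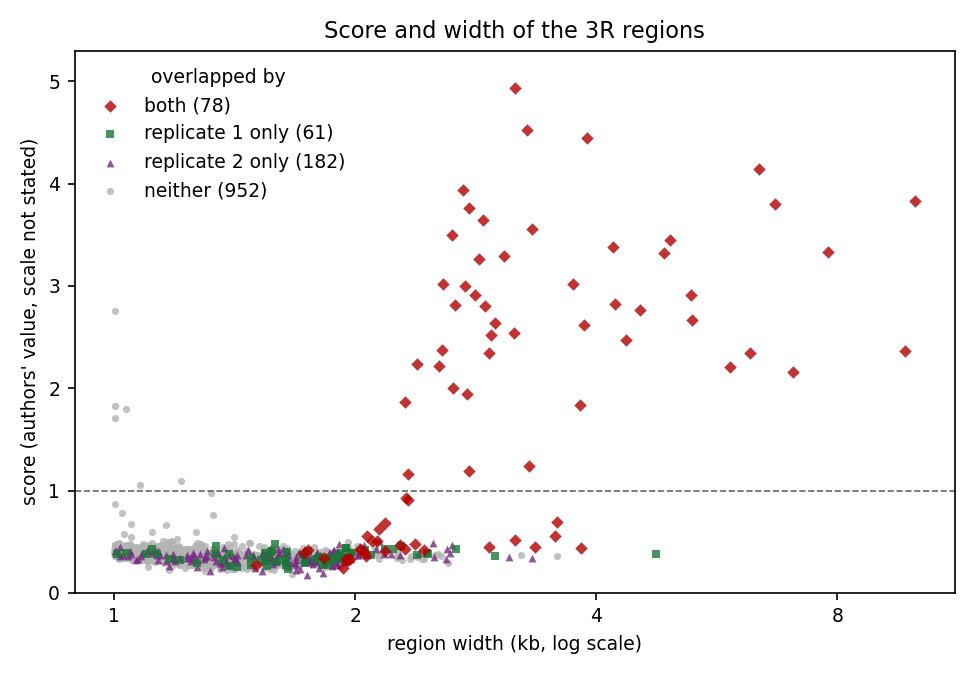
Score against width (log scale) of the 1273 regions of 3R, with colour and shape for the replicate lists that overlap them; the dashed line marks a score of 1. The 47 strong regions of at least 1301 bp are in both replicates, while the 6 narrower ones are in neither.

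Regions on 3R supported by both replicates also included weak ones. There were 31 of these, 2.54% of weak regions, against 2.55% on the other 4 arms. Their median width was 2131 bp (2029 to 2313) and their median score 0.43 (0.40 to 0.51), against 1189 bp and 0.37 for weak regions in neither replicate. Overlap with replicate regions favours wide regions by construction. The lowest score of a region in both replicates was 0.25, at 3R:9852142-9854070, where the replicate scores were 0.33 and 0.28.

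Seen from the replicate lists, strong regions on 3R were nearly all shared and weak ones seldom. Replicate 2 overlapped 50 of the 51 strong regions of replicate 1 (98.0%, 89.7 to 99.7), and replicate 1 overlapped all 52 of replicate 2 (100%, 93.1 to 100). Weak regions were shared in 32 of 108 cases in replicate 1 (29.6%, 21.8 to 38.8) and 29 of 253 in replicate 2 (11.5%, 8.10 to 16.0). The other 4 arms had much the same shares. For strong regions these were 95.7% in replicate 1 and 98.4% in replicate 2, and for weak ones 25.8% and 11.9%. Over all scores, 82 of 159 regions of replicate 1 on 3R were shared (51.6%, 43.9 to 59.2), against 43.1% on the other 4 arms (38.7 to 47.6) and 42.2% in its whole list. By arm the share was 54.5% on 2L, 48.0% on 3L, 41.9% on 2R and 25.5% on X, and without X the difference was 3.36 points (-5.90 to 12.5), an interval that includes 0. In replicate 2, 81 of 305 were shared (26.6%, 21.9 to 31.8), against 26.6% on the other 4 arms (23.5 to 29.9) and 26.2% in its whole list. Strong regions made up 32.1% of replicate 1 on 3R and 24.7% on the other 4 arms, where X had 12.3% and the others 23.3% to 32.0%. Without X the difference was 3.70 points (-4.62 to 12.5). Strong regions made up 17.0% of replicate 2 on 3R, against 17.0% on the other 4 arms.

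Replicate 2 added more weak regions on 3R than replicate 1 held. It had 253 weak and 52 strong regions, against 108 weak and 51 strong in replicate 1. The ratio of weak counts, replicate 2 over replicate 1, was 2.34 on 3R (1.86 to 2.96) and 1.73 on the other 4 arms (1.52 to 1.98). By arm it was 2.29 on 3L (1.71 to 3.10), 1.68 on 2R, 1.57 on 2L and 1.55 on X, so 3L had a ratio near that of 3R. The depth of the libraries, which is unknown, was not tested as a part of this difference.

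Overlapping regions of the 2 replicates on 3R had centres close together, which follows in part from pairing them by overlap. Each of the 82 shared regions of replicate 1 was paired with 1 overlapping region of replicate 2. A replicate 2 region could be in more than 1 pair. In these 82 pairs the centres differed by a median of 61.5 bp (43.5 to 87.0), and 73 of the 82 lay within 500 bp. Replicate 2 regions were wider by a median of 144 bp. Its score was the higher one in 68 of the 82 pairs, with a median difference of 0.42, replicate 2 minus replicate 1. Scores are the authors' and may be on a scale that differs between libraries. Among the 50 pairs with both members strong, Spearman's rho between the scores was 0.935, and among the 29 pairs with both weak it was 0.314. Of these 82 pairs, the one farthest apart in score, 1.49 in replicate 1 and 2.79 in replicate 2, lay under the second-widest region of the arm. There 1 replicate 2 region of 7840 bp overlapped a replicate 1 region of 2404 bp at 3R:11175625-11178028. Replicate 1 had a further region of 4458 bp under the same combined region, with a score of 2.91, so that the best scores of the replicates there were close. Under the widest region, 3R:21876594-21886584, the best scores were 3.64 in replicate 1 and 5.09 in replicate 2. That replicate 2 region, 3244 bp wide, is not in the 82 pairs.

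A small part of the replicate lists on 3R had no counterpart in the combined list. This was 16 of 159 regions in replicate 1 and 40 of 305 in replicate 2, and 0 of them were shared between the replicates. Apart from the region at 3R:3179426-3180860, all of them were weak. They were 1302 to 1629 bp wide in replicate 1 and 1301 to 1984 bp in replicate 2. On the other 4 arms 62 of 469 regions of replicate 1 and 105 of 737 of replicate 2 had no counterpart. The share with a counterpart was 89.9% on 3R and 86.8% on the other 4 arms in replicate 1. In replicate 2 it was 86.9% and 85.8%, so 3R was near the background.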

How the data were processed

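ZW5 ChIP and input libraries came from 14 to 16 h embryos, per the labels. Alignment used Bowtie 0.12.7, according to the submitters' processing notes. For each ChIP replicate and for the series, enriched regions were deposited with a score per region; the build is FlyBase release 5, per the file headers. The peak caller, its threshold, the scale of the score and how the combined list was made are not stated in the sources used here. The combined list was treated as pooled.

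Every deposited region was used. Overlap meant at least 1 bp, an arm's length was that in the file headers, and a region's place was that of its centre. Densities carry exact Poisson intervals, density ratios Clopper-Pearson intervals, shares Wilson intervals, differences of shares Newcombe intervals and medians order-statistic intervals, all at 95%. No p-value was computed, since regions are not replicates. Read depth is unknown. The members, the lists and the boundary at a score of 1 were chosen with earlier results of these data known. The named regions are the 12 highest scores in both replicates, the 5 widest, the 5 longest gaps, the 5 fullest 100 kb windows, the 3 longest runs and the 2 highest scores in neither replicate. Others were chosen after their values were seen. A gene table of release 6 was left unused, as builds were not mixed. Functions were tested on simulated data. Tools were Python 3.11.15 with matplotlib 3.10.9, numpy 2.4.6, pandas 2.3.3 and scipy 1.17.1.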

Additional observations from a re-analysis of the deposited data

How the results depend on the processing

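Of 54 alternative values over 10 results, 21 stayed within the interval of the reported value, 32 moved out of it and 1 changed direction. The density of 3R over the other 4 arms changed direction among the 2567 highest scores, at 0.880, and was 1.06 there without X. It ranged from 1.11 to 1.35 with a single replicate list. Limits on width and score leave fewer regions by construction. Regions of 1301 bp or more gave 21.5 regions per Mb, a median gap of 26.5 kb, 13.0% in both replicates, 45.3% in either, 7.82% strong and 2.00% in runs. The 2567 highest scores gave 17.5 regions per Mb, a median gap of 33.4 kb, 52.6% on the telomeric side, a median width of 1117 bp, 14.2% in both replicates and 0% in runs, which allows up to 0.616%. Single replicate lists gave 5.70 to 10.9 regions per Mb, gaps of 50.8 to 102 kb, 41.5% to 45.6% on the telomeric side, widths of 1586 to 1743 bp, 10.9% to 20.4% with support, 17.0% to 32.1% strong and 3.14% to 4.92% in runs. Gaps between centres had a median of 14.3 kb. The share in runs was 0.393% for gaps of at most 2 kb, 11.1% for at most 10 kb, 16.7% for at least 3 regions and 0% for at least 10, which allows up to 0.236%. The share of strong regions on the telomeric side, with alternatives added after these values were seen, ranged from 36.8% to 42.9% and lay within its interval in all 6. Comparisons without X were added then too. They left the differences in telomeric share outside 0 for all regions, those in both replicates and each replicate list, and brought 0 within the interval for strong regions in both replicates and for overlap with replicate 2. No paired analysis was possible because only the ChIP libraries have lists. Where a value moved for another reason than fewer regions, the cause was not tested.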
